A study of Rattus norvegicus with 42 samples.

Results

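The 9 genes described here set how the liver releases, clears and stores triglyceride, and were followed through glucocorticoid receptor (GR) binding, elongating RNA polymerase II and exonic RNA in rat liver. They were chosen by name as the angiopoietin-like protein Angptl4, the lipases Lipc, Lipg, Lpl, Pnpla2 and Lipe, and the lipid droplet proteins Plin2, Plin5 and Cidec, and they are 9 of the 26258 named genes that hold a region in the phospho-serine 2 polymerase II (pSer2 Pol2) data. All 9 have a row in the RNA table of 22929 genes, 8 of them with at least 1 read, and 7 have pSer2 Pol2 tags. GR regions were taken where their centre lay within 50 kb of a transcription start site of 1 of the 9 genes, which gave 9 of the 3981 GR regions in the series.

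Male Sprague Dawley rats were adrenalectomised, so that their own corticosterone (CORT) was removed, and were then infused with CORT or with vehicle. All groups shared dexamethasone and carprofen after surgery and CORT in saline drinking water until some hours before the infusion. PULS rats received CORT in 20 min pulses and CONS rats received the steroid without interruption, beginning at a raised rate. Liver was taken at 140 min, the peak of a pulse (PEAK_140), and at 180 min, the following trough (NADIR_180), with CONS_140 and CONS_180 at the same times. VEH in the ChIP assays is 1 library at 140 min and 1 at 180 min, both from the pulsatile vehicle infusion, so no constant vehicle stands behind the CONS libraries there. Each ChIP group had 2 libraries, each pooling liver from 6 rats, and held 2051977 to 6715803 GR tags or 4938473 to 9326927 pSer2 Pol2 tags per library. RNA was measured at 180 min only, in 3 libraries each of PULS CORT, PULS VEH, CONS CORT and CONS VEH, with 3956379 to 7777219 reads. The labels do not say whether each RNA library came from 1 animal, so p-values for RNA measure the spread between these samples, which may be technical. Tissue markers were those of liver: the 6 hepatocyte markers summed to between 84600 and 140000 CPM, reads scaled to library size, while the 5 adipocyte markers summed to at most 0.412 CPM, with Cfd and Lep at 0.

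The liver secretes and takes up lipoproteins, and stores surplus triglyceride in cytosolic droplets. Lipoprotein lipase (Lpl), hepatic lipase (Lipc) and endothelial lipase (Lipg) act on lipoproteins at the vessel wall, and Angptl4 inhibits lipoprotein lipase. Inside the cell, adipose triglyceride lipase (Pnpla2) and hormone-sensitive lipase (Lipe) break down stored lipid, perilipins such as Plin2 and Plin5 coat the droplet surface, and Cidec promotes the growth of droplets. GR is a ligand-activated transcription factor that binds DNA while CORT is present, and polymerase II phosphorylated at serine 2 marks transcription in progress.

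The promoters of Lipc and Plin2, whose RNA changed, and of Angptl4, which lay beside the most GR regions, are shown because the comparisons below turn on these genes. Each run covers 250 bases before and 50 bases after a start site in RefSeq on the GRCr8 build, which is not the rn6 build of the measurements, and capitals mark AGGTCA or its reverse complement, the core that many nuclear receptors recognise. RefSeq gave a promoter for 7 of the 9 genes, Plin2 with 2 starts, of which the first is shown. Lipc lay at chr8:80516236-80516535, Plin2 at chr5:106228969-106229268 and Angptl4 at chr7:15258632-15258931, all on the minus strand and written 5′ to 3′.
Lipc: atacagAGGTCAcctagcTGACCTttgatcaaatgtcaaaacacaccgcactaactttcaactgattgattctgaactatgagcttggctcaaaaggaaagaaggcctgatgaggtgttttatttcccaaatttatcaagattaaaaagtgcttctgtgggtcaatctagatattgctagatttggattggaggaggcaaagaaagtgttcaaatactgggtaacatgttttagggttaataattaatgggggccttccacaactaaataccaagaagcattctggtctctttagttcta
Plin2: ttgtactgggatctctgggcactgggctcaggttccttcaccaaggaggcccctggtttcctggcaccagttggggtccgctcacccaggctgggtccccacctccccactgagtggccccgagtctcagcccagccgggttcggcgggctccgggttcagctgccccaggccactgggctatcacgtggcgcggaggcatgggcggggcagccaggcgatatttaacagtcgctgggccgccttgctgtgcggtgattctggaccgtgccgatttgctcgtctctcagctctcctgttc
Angptl4: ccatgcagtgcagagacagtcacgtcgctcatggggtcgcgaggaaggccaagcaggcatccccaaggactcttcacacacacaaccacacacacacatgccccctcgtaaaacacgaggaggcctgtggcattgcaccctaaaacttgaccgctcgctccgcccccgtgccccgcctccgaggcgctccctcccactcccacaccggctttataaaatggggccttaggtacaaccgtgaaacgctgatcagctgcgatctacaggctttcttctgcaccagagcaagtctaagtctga

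Lipc held AGGTCA copies beginning 244 and 232 bases before its start, and Plin5 held 1 copy, beginning 157 bases before. This core was present in 16.2% of the 33469 promoters. The full palindromic glucocorticoid response element (0.0149% of all promoters), the looser ACANNNTGT (6.86%) and the direct repeat of AGGTCA with 1 base between the copies (0.0538%), each read on both strands, were found in 0 of the 8 promoters of these genes. The direct repeat contains AGGTCA and the full element contains ACANNNTGT, so the matches overlap in definition.

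RNA at 180 min showed a fall in the secreted lipase and in the droplet coat protein Plin2. Lipc was lower under both CORT patterns than in the matching vehicle, Plin2 was lower under CONS CORT, and no member passed the test as higher. Plin5 (higher in both patterns), Lpl (lower under PULS) and Cidec (higher under CONS) had differences near that size, with wider errors or under the fold limit. A gene passed when edgeR's quasi-likelihood test gave an adjusted p under 0.05 over 14092 genes with more than 10 reads and the change exceeded 1.5-fold. Of the 9 genes, 7 were tested, since Lipg had 8 reads in all and Pnpla2 had 0. In these bulk samples fewer cells of a type and less RNA per cell cannot be told apart.

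**Figure D1:**
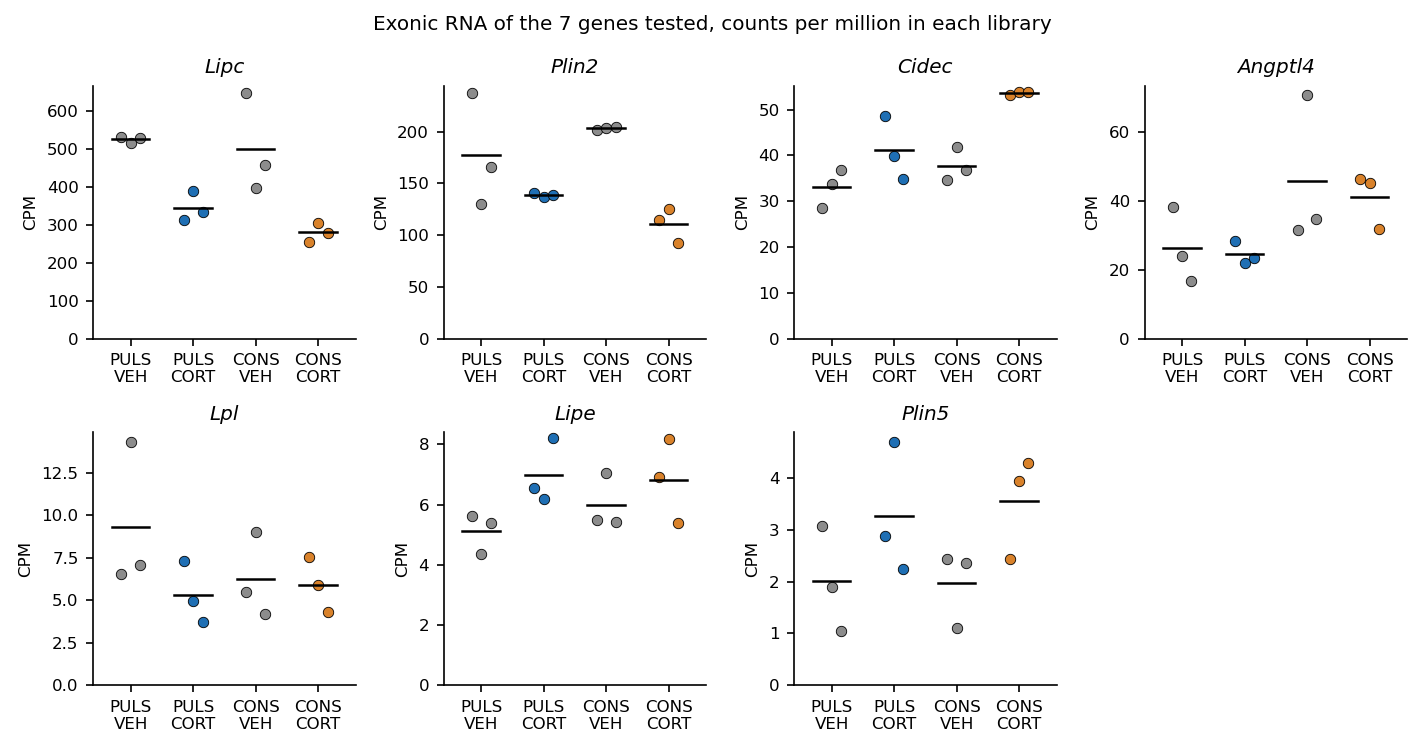
Exonic RNA of Lipc, Plin2, Cidec, Angptl4, Lpl, Lipe and Plin5 in CPM (vertical axis, from 0) in the 12 libraries, grouped on the horizontal axis as PULS VEH, PULS CORT, CONS VEH and CONS CORT. Points are libraries and bars are means of 3; the Lipc points of both CORT groups (254 to 388 CPM) lie below all vehicle points (398 to 646 CPM).

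Lipc RNA was 515, 529 and 532 CPM in PULS VEH and 313, 333 and 388 CPM in PULS CORT. In the constant arm it was 398, 456 and 646 CPM in CONS VEH and 254, 279 and 306 CPM in CONS CORT. The vehicle and CORT libraries did not overlap in either arm, although 1 CONS VEH library stood above the others. How many of all genes separate in this way was not counted, here or for the genes below. Against its own vehicle Lipc fell by 0.61 on the log2 scale under PULS (standard error 0.16, 1.53-fold, adjusted p = 0.0312) and by 0.84 under CONS (standard error 0.16, 1.79-fold, adjusted p = 0.00171). The PULS call rested on single libraries: it was lost without PULS CORT replicate 1 (adjusted p = 0.118) or replicate 3 (adjusted p = 0.0918), and without PULS VEH replicate 1 (adjusted p = 0.0748), replicate 2 (adjusted p = 0.0678) or replicate 3 (adjusted p = 0.0743), where the log2 fold change stayed between -0.62 and -0.54. The CONS call was kept with each library left out in turn.

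Plin2 RNA was 130, 166 and 237 CPM in PULS VEH and 137, 139 and 140 CPM in PULS CORT, so the groups overlapped. In CONS VEH it was 202, 203 and 205 CPM, and in CONS CORT 92.6, 114 and 125 CPM, with no overlap. Under CONS the level fell by 0.87 on the log2 scale (standard error 0.17, 1.83-fold, adjusted p = 0.00242), and this call was kept with each library left out. Under PULS the log2 fold change was -0.36 (standard error 0.17, adjusted p = 0.254). The difference between the 2 responses was itself -0.52 for Plin2 (standard error 0.24, adjusted p = 0.393) and -0.23 for Lipc (standard error 0.22, adjusted p = 0.721), so a difference between the infusion patterns was not shown for either gene.

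Cidec RNA moved the other way without passing. It was 28.4, 33.8 and 36.9 CPM in PULS VEH, 34.8, 39.8 and 48.7 CPM in PULS CORT, 34.6, 36.7 and 41.9 CPM in CONS VEH, and 53.2, 53.9 and 53.9 CPM in CONS CORT. All CONS CORT libraries stood above all 9 others. The log2 fold change under CONS was 0.51 (standard error 0.13, adjusted p = 0.0177), below the 1.5-fold limit at 1.43-fold. Leaving out CONS VEH replicate 2 put it past the limit (log2 fold change 0.59, adjusted p = 0.0172). Under PULS it was 0.32 (standard error 0.14, adjusted p = 0.206).

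**Figure D2:**
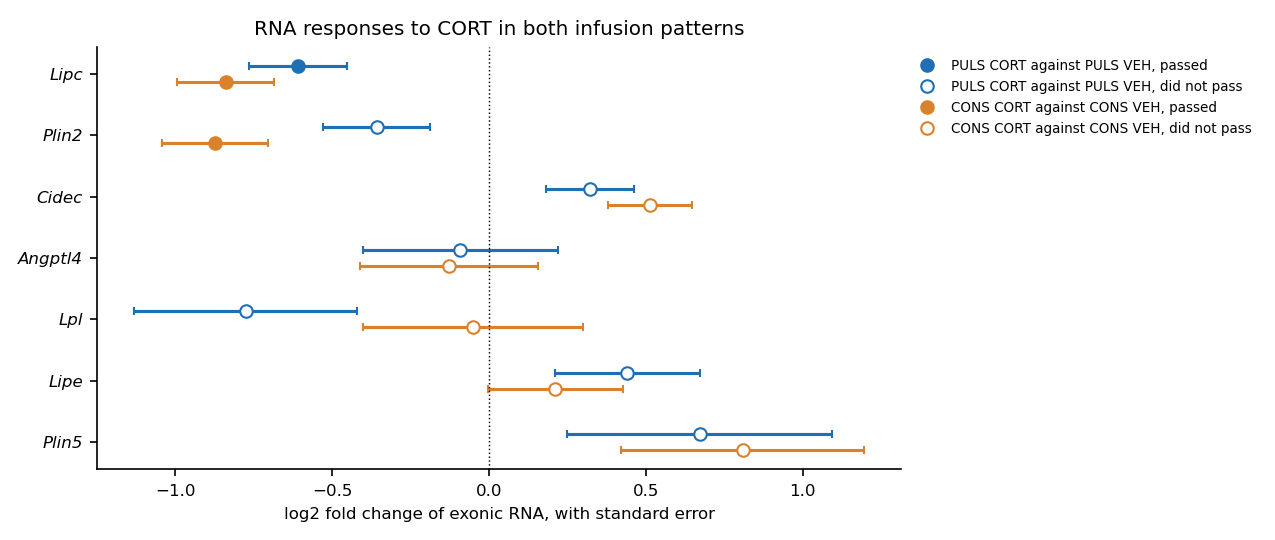
Log2 fold change of exonic RNA (horizontal axis) for CORT against matching vehicle in PULS (blue) and CONS (orange), 1 row per gene, with standard errors; filled points passed the test and open points did not. Lipc lies left of 0 in both patterns (-0.61 and -0.84), Plin2 is filled under CONS (-0.87), and both Angptl4 points lie within 1 standard error of 0.

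Angptl4 RNA did not pass the test of CORT against vehicle: the log2 fold change was -0.09 under PULS (standard error 0.31, adjusted p = 0.918) and -0.13 under CONS (standard error 0.28, adjusted p = 0.84). It was 22, 23.4 and 28.3 CPM in PULS CORT and 16.6, 23.8 and 38 CPM in PULS VEH. Both constant arms held more, with 31.7, 45.2 and 46.3 CPM in CONS CORT and 31.4, 34.7 and 70.5 CPM in CONS VEH. The infusion pattern gave log2 differences of 0.74 with CORT (standard error 0.30, adjusted p = 0.36) and 0.77 with vehicle alone (standard error 0.29, adjusted p = 0.456), neither of which passed. CONS VEH replicate 2, the highest library, set the sign of the CONS response, which was 0.32 without it (adjusted p = 0.492).

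The less abundant members gave wide errors. Lpl was between 3.73 and 14.3 CPM over all 12 libraries, with 1 PULS VEH library at 14.3 CPM and the other two at 6.52 and 7.05 CPM, and its log2 fold change was -0.78 under PULS (standard error 0.36, adjusted p = 0.238) and -0.05 under CONS (standard error 0.35, adjusted p = 0.956). Lipe lay between 4.34 and 8.2 CPM, with log2 fold changes of 0.44 under PULS (standard error 0.23, adjusted p = 0.307) and 0.21 under CONS (standard error 0.21, adjusted p = 0.603). Plin5 lay between 1.04 and 4.7 CPM, or 5 to 28 reads, with 0.67 under PULS (standard error 0.42, adjusted p = 0.41) and 0.81 under CONS (standard error 0.39, adjusted p = 0.206). Lipg had 0 to 3 reads per library, too few for any comparison.

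Pnpla2 could not be read in these files. Its row held 0 reads in all 12 RNA libraries and its region (chr1:214434626-214439720, rn6) held no pSer2 Pol2 tags in any of 10. Of the 10 other genes within 50 kb, 9 also had no pSer2 Pol2 tags, and those of the 9 with an RNA row had 0 to 3 reads over all libraries, Cd151 and Slc25a22 among them, whereas Taldo1 at the edge of the stretch had 4926 reads. The 0 is therefore given as a listed value and not as a level of Pnpla2.

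Over the members as a group, 0 of 7 tested rose and 1 fell under PULS, where 4.23% of all genes were called, and 0 rose and 2 fell under CONS, where 9.2% of all genes were called. The members' median log2 fold change was -0.09 under PULS and -0.05 under CONS, against -0.01 over all genes in both. The test of the difference between the responses called 0 members (1 at an unadjusted p under 0.05) and 0.0284% of genes. CONS CORT against PULS CORT called 0 members (2 at an unadjusted p under 0.05) and 0.887% of genes, and CONS VEH against PULS VEH called 0 members (1 at an unadjusted p under 0.05) and 0.0% of genes; DESeq2 called 0 members in these 3 comparisons as well. PULS and CONS responses rest on separate vehicles, but the comparisons of CORT with CORT and of vehicle with vehicle reuse the same libraries. Markers of other cell types were read beside these results. The 4 stellate cell markers summed to 145 to 183 CPM in PULS CORT against 211 to 268 CPM in PULS VEH, and to 135 to 162 CPM in CONS CORT against 182 to 216 CPM in CONS VEH, with 0 of 4 genes passing the test. Reln held most of these reads (10681, beside 832 for Col1a1, 347 for Lrat and 109 for Des). Its log2 fold change was -0.54 under PULS (edgeR's adjusted p = 0.0172) and -0.45 under CONS (adjusted p = 0.0241), below the fold limit. Col1a1, Lrat and Des gave -0.30, -0.08 and 0.34 under PULS and -0.45, -0.16 and -0.23 under CONS. The sums thus mostly follow a single gene, and their part in the Lipc and Plin2 results was not tested. The summed hepatocyte markers were 134000 to 139000 CPM in CONS CORT and 84600 to 126000 CPM in CONS VEH, where Tat and Cps1, both of that list, passed as higher in the series, and their part was not tested either. The summed macrophage, endothelial, bile duct and lymphocyte markers overlapped between CORT and vehicle in both arms.

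Neighbouring genes of the same pathways were read from lists chosen with earlier results of these data known, so their counts are a description. Of the 8 genes that act in intracellular lipolysis, 7 were tested: 0 rose and 1 fell under PULS, and 0 rose and 3 fell under CONS, with a median log2 fold change of -0.33 under PULS and -0.89 under CONS against -0.01 over all genes in both. All 3 lists together gave 1 of 25 genes called under PULS and 3 of 25 under CONS, where 4.23% and 9.2% of all genes were called, so the lists as a whole lay near the background. Abhd5, the co-activator of adipose triglyceride lipase, was 41.3, 45.1 and 107 CPM in PULS VEH and 31.9, 32.1 and 32.8 CPM in PULS CORT, a fall by 1.00 on the log2 scale (standard error 0.27, adjusted p = 0.0374). It was 44, 48 and 56.8 CPM in CONS VEH and 23.1, 25.3 and 27.2 CPM in CONS CORT, a fall by 0.97 (standard error 0.27, adjusted p = 0.0239). Neither pair of groups overlapped. The PULS value rested on PULS VEH replicate 2 at 107 CPM, without which it was -0.42 on the log2 scale (adjusted p = 0.122). Mgll, which cleaves monoglyceride, fell by 0.89 under CONS (standard error 0.20, adjusted p = 0.00769), from 76.2 ± 21.9 to 41.2 ± 2.07 CPM (SD, n = 3). Aadac, an esterase of the endoplasmic reticulum, fell by 0.60 under CONS (standard error 0.17, adjusted p = 0.0289), from 25.8 ± 5.45 to 17 ± 1.59 CPM (SD, n = 3).

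The Mgll call was kept with each library left out, while the others were lost without single libraries. Abhd5 under PULS was lost without PULS CORT replicate 1 (adjusted p = 0.108), 2 (0.116) or 3 (0.0928) or PULS VEH replicate 2 (0.122), and in a fit of the PULS libraries alone (0.0868). Abhd5 under CONS was lost without CONS CORT replicate 1 (0.0537), 2 (0.0616) or 3 (0.0932) or CONS VEH replicate 3 (0.0939). Aadac was lost without CONS CORT replicate 1 (0.0675), 2 (0.11) or 3 (0.0596) or CONS VEH replicate 3 (0.156). Of the 10 genes around lipoprotein lipase, 7 were tested and 0 passed in any RNA comparison, and of the 13 other droplet genes 11 were tested and 0 passed. Angptl8, a liver-secreted relative of Angptl4, was listed at 0 reads in all 12 RNA libraries although its start region carried pSer2 Pol2 values of 5.35 to 8.94, so its RNA is not read here.

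Elongating polymerase was measured over up to 10 kb from the start of each gene, as the deposited log2 values after subtraction of input. Plin2 had its lowest values at the pulse peak, Lipc lay at the floor of its values there and in 2 constant libraries, Angptl4 was lowest in both pulsatile groups, and Cidec was lowest in VEH. None of these differences passed limma's adjusted p under 0.05 over the 38315 regions with tags, so they are given as levels. How many of all regions order their libraries in these ways was not counted. Each member is represented by its region with the highest mean over the 10 libraries.

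**Figure D3:**
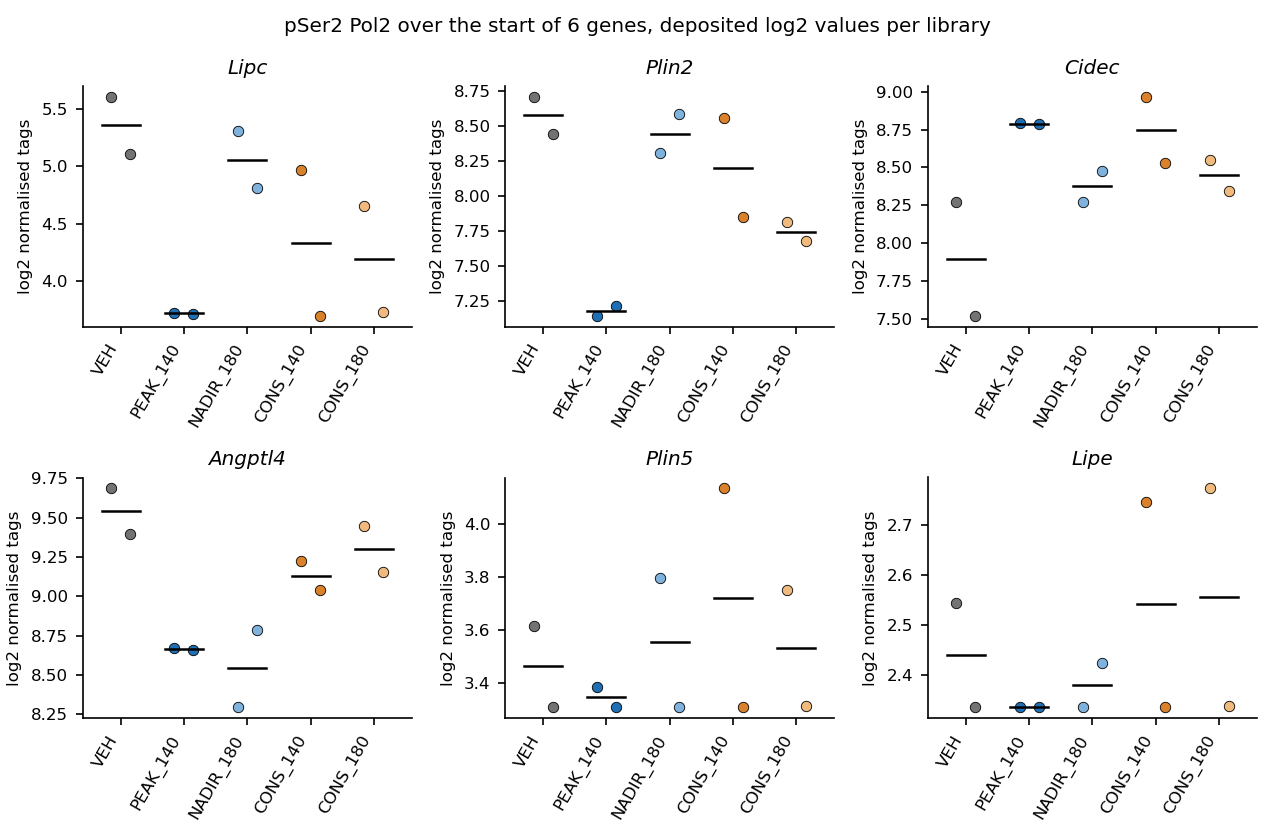
pSer2 Pol2 log2 values (vertical axes, each on its own range and not starting at 0) over the start of Lipc, Plin2, Cidec, Angptl4, Plin5 and Lipe in the 10 libraries, by group on the horizontal axis. Points are libraries and bars are means of 2; the PEAK_140 points of Plin2 (7.14 and 7.21) lie below all other libraries, and the lowest points of Plin5 and Lipe repeat 1 shared value.

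The Plin2 region (chr5:105000857-105010857, rn6) held 8.71 and 8.45 in VEH, 7.14 and 7.21 in PEAK_140, 8.31 and 8.58 in NADIR_180, 8.56 and 7.85 in CONS_140 and 7.81 and 7.68 in CONS_180. The peak libraries were the lowest of all 10 and the trough libraries lay near those of VEH. Against VEH the difference was -1.40 at PEAK_140 (standard error 0.33, adjusted p = 0.101) and -0.13 at NADIR_180 (standard error 0.33, adjusted p = 1.0), and PEAK_140 against NADIR_180 gave -1.27 (standard error 0.33, adjusted p = 0.239). Scaling moved the calls over all regions at PEAK_140 against VEH, from 379 to 783 (centred) and 844 (quantile normalised). It also decided the first call for Plin2, which passed at PEAK_140 once libraries were centred on their median (-1.31, adjusted p = 0.0202) or quantile normalised (-1.13, adjusted p = 0.0235). The time effects of the patterns differed by -1.73 (standard error 0.47, adjusted p = 0.323), and passed without CONS_140 replicate 2 (-2.08, adjusted p = 0.00282), as did PEAK_140 against CONS_140 (-1.38, adjusted p = 0.00528, against -1.03 with an adjusted p of 0.305 in all libraries) and CONS_140 against CONS_180 (0.81, adjusted p = 0.0378, against 0.46 with an adjusted p of 0.654 in all libraries). That leaves CONS_140 replicate 1 alone in its group, assumed to vary like the others, and this library had the highest median of all 10 (2.84, the rest 2.36 to 2.56). Without replicate 2, 8579 of the 38315 regions passed for PEAK_140 against CONS_140, 7696 for the difference of the time effects and 5555 for CONS_140 against CONS_180, where 10, 22 and 0 passed in all libraries, so such a call says little about Plin2 or Lipc themselves.

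The Lipc region (chr8:77388201-77398201, rn6) held 5.6 and 5.11 in VEH, 3.73 and 3.72 in PEAK_140, 5.30 and 4.81 in NADIR_180, 4.97 and 3.70 in CONS_140 and 4.65 and 3.74 in CONS_180. Of the 10 libraries 4, both of PEAK_140 among them, lay within 0.05 of the lowest value, so the depth of the fall there cannot be read. The value repeated in this way differed between genes (3.70 for Lipc, 3.31 for Plin5, 2.34 for Lipe and -2.17 for Lpl). What set this value was not tested. Against VEH the difference was -1.63 at PEAK_140 (standard error 0.45, adjusted p = 0.199), -1.02 at CONS_140 (standard error 0.45, adjusted p = 0.536), -1.16 at CONS_180 (standard error 0.45, adjusted p = 0.999) and -0.30 at NADIR_180 (standard error 0.45, adjusted p = 1.0). Under quantile normalization, calls over all regions against VEH went from 302 to 711 at CONS_140 and from 82 to 363 at CONS_180. Lipc passed at PEAK_140 with libraries centred on their median (-1.54, adjusted p = 0.0245) or quantile normalised (-1.45, adjusted p = 0.00803), and under quantile normalization also at CONS_140 (-1.3, adjusted p = 0.0142) and CONS_180 (-1.27, adjusted p = 0.0239). Without CONS_140 replicate 2 the difference of the time effects, -1.47 in all libraries (adjusted p = 0.604), was -2.11 (adjusted p = 0.0435).

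The Angptl4 region (chr7:18627808-18634079, rn6) was among the most occupied, with a mean above 99.2% of the regions tested. It held 9.69 and 9.40 in VEH, 8.67 and 8.66 in PEAK_140, 8.29 and 8.79 in NADIR_180, 9.23 and 9.04 in CONS_140 and 9.45 and 9.16 in CONS_180. The 4 pulsatile CORT libraries were the lowest of the 10, and the constant libraries lay between them and VEH or within VEH. Against VEH the difference was -0.88 at PEAK_140 (standard error 0.30, adjusted p = 0.501), -1.0 at NADIR_180 (standard error 0.30, adjusted p = 1.0), -0.41 at CONS_140 (standard error 0.30, adjusted p = 0.605) and -0.24 at CONS_180 (standard error 0.30, adjusted p = 0.999), and none passed under any alternative.

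The Cidec region (chr4:145380447-145390447, rn6) held 8.28 and 7.52 in VEH, 8.79 and 8.78 in PEAK_140, 8.27 and 8.48 in NADIR_180, 8.96 and 8.53 in CONS_140 and 8.55 and 8.35 in CONS_180. Only 1 CORT library, in NADIR_180, lay below the higher VEH library. Against VEH the difference was 0.89 at PEAK_140 (standard error 0.34, adjusted p = 0.67) and 0.85 at CONS_140 (standard error 0.34, adjusted p = 0.536), and the first passed under quantile normalization (1.00, adjusted p = 0.0451). Of all regions, 844 passed at PEAK_140 under that scaling and 379 without it. Plin5 lay between 3.31 and 4.14 with 5 of 10 libraries at the lowest value, Lipe between 2.34 and 2.77 with 6 of 10 there, and Lpl between -2.17 and -1.99 with 8 of 10 there, so a fall could not be read for these 3 genes. Lipg and Pnpla2 had no tags.

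By count, 0 of 7 members with tags were called in any pSer2 Pol2 comparison. The background was 0.989% of regions for PEAK_140, 0.788% for CONS_140, 0.214% for CONS_180 and 0.00522% for NADIR_180, each against the VEH libraries they share. At an unadjusted p under 0.05, limma put 4, 2, 2 and 1 of the 7 members in the same order, where 5.01%, 5.91%, 2.94% and 1.45% of all regions stood. PEAK_140 against NADIR_180 called 0.48% of regions, and 2 members had an unadjusted p under 0.05. The remaining comparisons called 0.0% (CONS_140 against CONS_180), 0.0261% (PEAK_140 against CONS_140), 0.17% (CONS_180 against NADIR_180) and 0.0574% (the difference of the time effects), with 0, 1, 1 and 2 members at an unadjusted p under 0.05. With the replicate number as a block over the 8 CORT libraries, PEAK_140 against CONS_140 called 747 regions where 10 were called without it, the difference of the time effects 41 where 22 were called, and CONS_140 against CONS_180 4 where 0 were called, with 0 members in each. The members' median difference at PEAK_140 was -0.12 against -0.05 over all regions. Of the pathway lists, Angptl8, which takes part in the inhibition of lipoprotein lipase, was called. Its region held 8.49 and 8.58 in VEH, 5.35 and 5.78 in PEAK_140 and 8.48 and 8.94 in NADIR_180, a difference of -2.97 from VEH (standard error 0.38, adjusted p = 0.00423) and of -3.14 from NADIR_180 (standard error 0.38, adjusted p = 0.00423). The first call was lost without PEAK_140 replicate 1 (adjusted p = 0.0694) or VEH replicate 1 (0.0624) or 2 (0.0633), and the second without PEAK_140 replicate 1 (0.0834) or NADIR_180 replicate 1 (0.102). Both were also lost in a fit of only the 4 libraries compared (0.312 and 0.136) and in a fit that kept regions without tags (0.0807 and 0.0588). Its values in CONS_140 were 7.69 and 6.76 and in CONS_180 7.13 and 7.05, between the peak and the trough.

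GR occupancy near these genes was higher with CORT than in VEH and low again at the trough. The regions were merged by the authors from peaks called in these same libraries, and 0 of the 9 had a peak in VEH or NADIR_180. Differences from those groups were therefore favoured by the choice of regions, and the tests below describe them without being independent of it. The 9 regions lay near 3 genes only: 5 downstream of the Angptl4 start, 2 of Cidec and 2 of Plin5, while Lipc, Lipg, Lpl, Pnpla2, Lipe and Plin2 had 0 within 50 kb. Over all named genes, 16.9% had a region within 50 kb and 0.507% had 5 or more, as Angptl4 did. Genes lying close together share regions, so these shares do not count separate binding events.

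**Figure D4:**
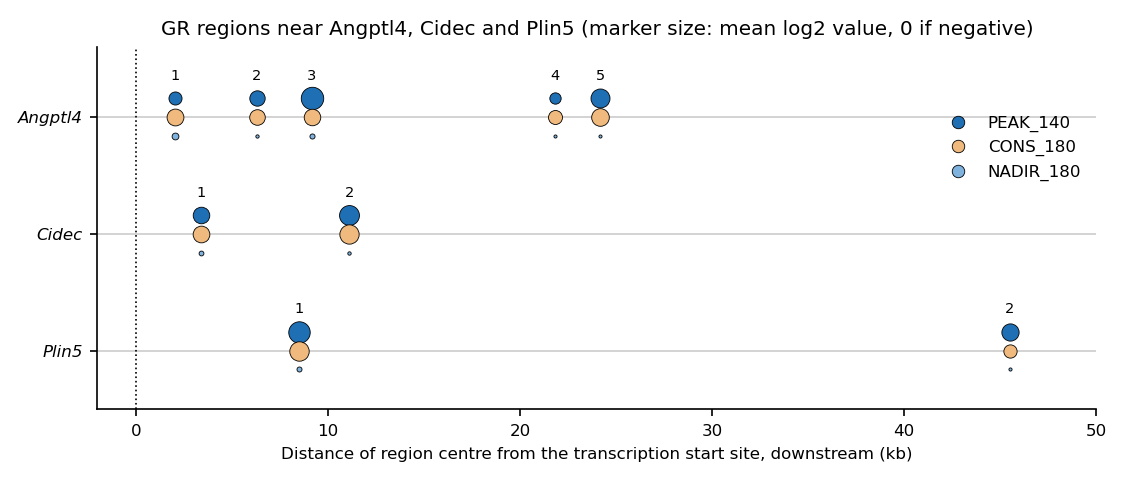
Position of the 9 GR regions as the distance of their centre downstream of the start site (horizontal axis, kb) of Angptl4, Cidec and Plin5 (rows), with numbers naming the regions. Marker size follows the mean log2 value in PEAK_140, CONS_180 and NADIR_180 and is smallest for negative means; Angptl4 holds regions at 2040.5 to 24183.5 bases, and the NADIR_180 markers are the smallest at each position.

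Angptl4 region 1 (chr7:18631726-18632351, rn6) lay in intron 3 of the gene, 2040.5 bases from its start, region 2 (chr7:18627486-18628111) at its transcription end, and region 3 (chr7:18624661-18625188) beyond the end, 9154.5 bases from the start. Region 4 (chr7:18611971-18612596) covered the promoter of the neighbour Rab11b and region 5 (chr7:18609583-18610208) in an intron of a transcript whose nearest start the file also gives as Rab11b, 24183.5 bases from the Angptl4 start. Cidec region 1 (chr4:145386756-145387381) lay in an intron near the Cidec start, and region 2 (chr4:145379028-145379653), 11106.5 bases from the start, in an intron of a transcript whose nearest start the file gives as Rpusd3. Plin5 region 1 (chr9:10964248-10964882) lay in an intron of a transcript whose nearest start is Plin4, another perilipin gene, and region 2 (chr9:11001350-11001745) at a transcription end, 45491.5 bases from the Plin5 start and with Ubxn6 as the nearest start. No genome of the rn6 build was used here, so the sequences under these regions are not shown. Peak lists called by the authors in each group from both replicates overlapped 5 of the 9 regions at PEAK_140, 7 at CONS_180, 2 at CONS_140 and 0 in NADIR_180 and VEH, where they overlapped 80.6%, 61.0%, 43.3%, 1.81% and 2.91% of all GR regions.

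**Figure D5:**
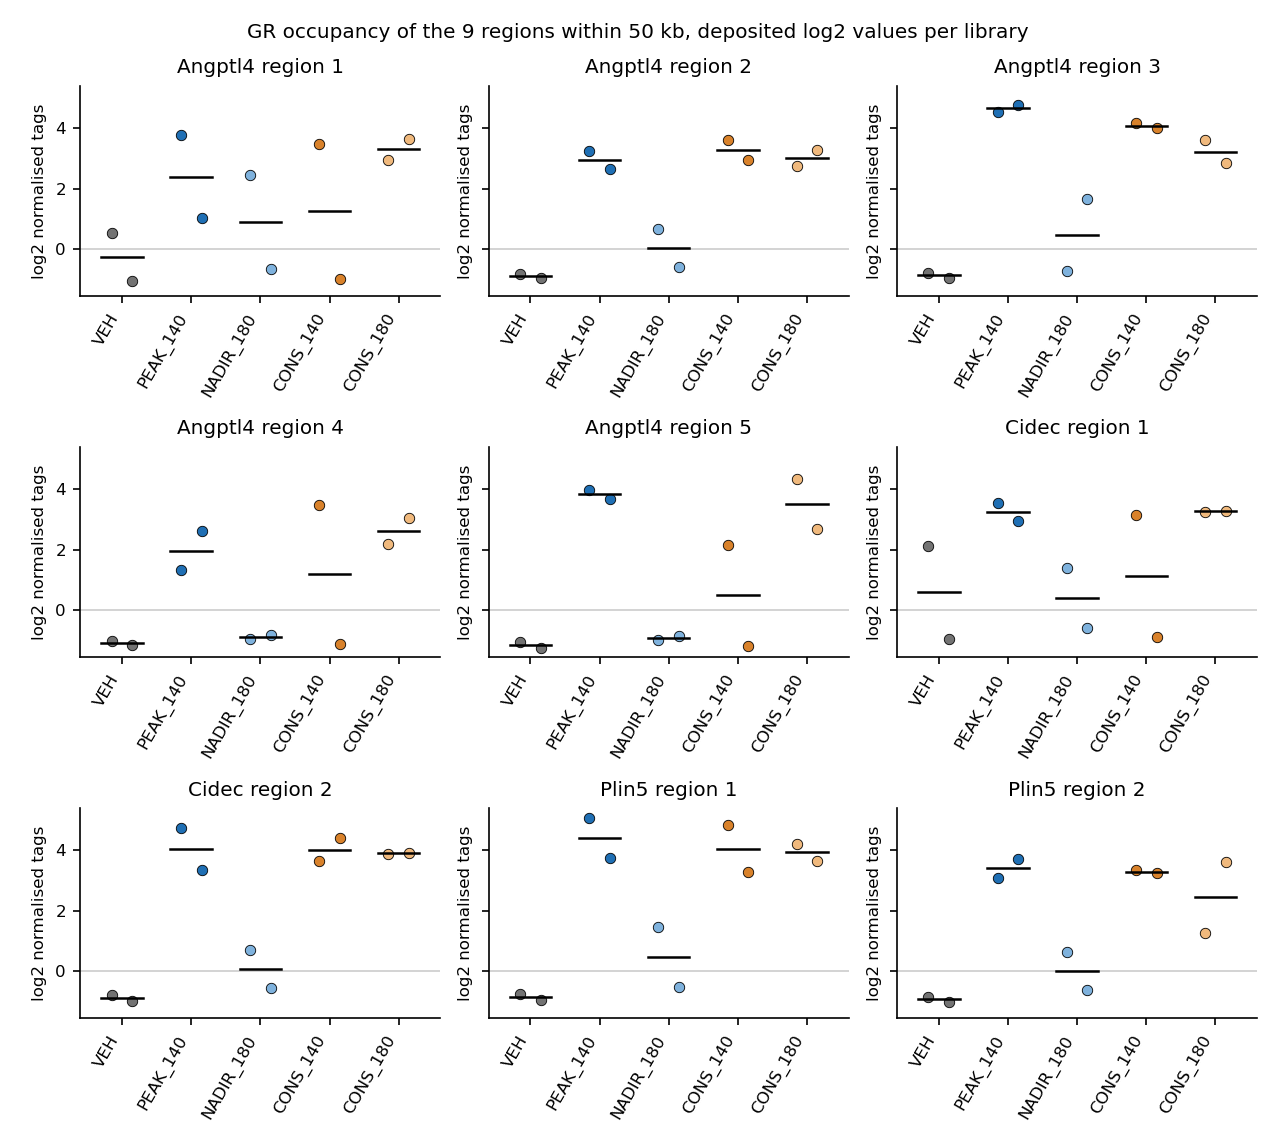
GR log2 values (vertical axis) of the 9 regions in the 10 libraries, by group on the horizontal axis, with library points, means of 2 as bars and a grey line at 0. PEAK_140 and CONS_180 points all lie above 0, VEH points lie below 0 except in Angptl4 region 1 and Cidec region 1, and the CONS_140 points split widely in Angptl4 regions 1, 4 and 5 and Cidec region 1.

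Angptl4 region 3 was the most occupied of the 5 near that gene at the pulse peak. It held -0.76 and -0.94 in VEH, 4.52 and 4.75 in PEAK_140, -0.70 and 1.65 in NADIR_180, 4.14 and 3.97 in CONS_140 and 3.59 and 2.84 in CONS_180. No CORT library of PEAK_140, CONS_140 or CONS_180 overlapped VEH or NADIR_180. How many of all GR regions separate in this way was not counted. The group medians over all GR regions were 3.78, 3.23 and 3.27 in PEAK_140, CONS_140 and CONS_180, beside -0.57 in VEH and 0.54 in NADIR_180. The difference from VEH was 5.48 at PEAK_140 (standard error 0.81, adjusted p = 0.000382), 4.9 at CONS_140 (standard error 0.81, adjusted p = 0.000866), 4.06 at CONS_180 (standard error 0.81, adjusted p = 0.00236) and 1.32 at NADIR_180 (standard error 0.81, adjusted p = 0.445). Without NADIR_180 replicate 1 the last became 2.50 (adjusted p = 0.0388). Values below 0 were not read as tag counts. In this region both VEH values and 1 of NADIR_180 lay below 0. Over all regions near these genes, such values numbered 16 in VEH, 11 in NADIR_180, 4 in CONS_140 and 0 in PEAK_140 and CONS_180. In VEH replicate 2 they stayed between -1.22 and -0.92 across these regions, and what set this level was not tested. These differences are therefore fitted values that rest on such low values, and whether they are bounds was not tested.

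Angptl4 region 2 followed the same course, with -0.79 and -0.94 in VEH, 3.24 and 2.64 in PEAK_140, 0.68 and -0.58 in NADIR_180, 3.58 and 2.95 in CONS_140 and 2.73 and 3.25 in CONS_180. Its difference from VEH was 3.80 at PEAK_140 (standard error 0.70, adjusted p = 0.00115), 4.13 at CONS_140 (adjusted p = 0.00099), 3.86 at CONS_180 (adjusted p = 0.00152) and 0.91 at NADIR_180 (adjusted p = 0.547).

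Regions 4 and 5, nearest to Rab11b, and region 1 showed a split between the CONS_140 libraries. Region 5 held -1.05 and -1.22 in VEH, 3.96 and 3.66 in PEAK_140, -0.98 and -0.83 in NADIR_180, 2.16 and -1.16 in CONS_140 and 4.30 and 2.67 in CONS_180. It rose by 4.94 at PEAK_140 (standard error 1.08, adjusted p = 0.00286) and by 4.62 at CONS_180 (standard error 1.08, adjusted p = 0.00528), while CONS_140 gave 1.63 (standard error 1.08, adjusted p = 0.207), or 3.29 without its replicate 2 (adjusted p = 0.00947). Region 4 held -0.99 and -1.15 in VEH, 1.32 and 2.62 in PEAK_140, -0.93 and -0.79 in NADIR_180, 3.47 and -1.09 in CONS_140 and 2.19 and 3.03 in CONS_180. It passed only at CONS_180 (3.68, standard error 1.32, adjusted p = 0.0337), and this call was lost without either NADIR_180 library (adjusted p = 0.0552 and 0.0556), either CONS_180 library (0.0821 and 0.14) or either VEH library (0.0965 and 0.116). At PEAK_140 it gave 3.03 (adjusted p = 0.0582), which passed without either CONS_140 library, and at CONS_140 2.26 (adjusted p = 0.162), which passed without replicate 2. Region 1 held 0.55 and -1.03 in VEH, 3.74 and 1.03 in PEAK_140, 2.43 and -0.65 in NADIR_180, 3.47 and -0.98 in CONS_140 and 2.94 and 3.63 in CONS_180. It passed in no comparison with VEH, where the largest difference was 3.52 at CONS_180 (standard error 1.61, adjusted p = 0.0795), which passed without CONS_140 replicate 1 (0.0386) or 2 (0.0392). The low library, CONS_140 replicate 2, held 3663062 tags and its partner 6715803, and the part of this in the split was not tested.

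Cidec region 2 held -0.78 and -0.95 in VEH, 4.72 and 3.32 in PEAK_140, 0.70 and -0.56 in NADIR_180, 3.61 and 4.37 in CONS_140 and 3.86 and 3.90 in CONS_180. The difference from VEH was 4.89 at PEAK_140 (standard error 0.73, adjusted p = 0.000426), 4.86 at CONS_140 (adjusted p = 0.000557), 4.75 at CONS_180 (adjusted p = 0.000712) and 0.94 at NADIR_180 (adjusted p = 0.554). Cidec region 1 held 2.11 and -0.92 in VEH and passed against VEH in no comparison, with differences of 2.64 at PEAK_140 (standard error 1.42, adjusted p = 0.114), 0.54 at CONS_140 (adjusted p = 0.741), 2.66 at CONS_180 (adjusted p = 0.123) and -0.18 at NADIR_180 (adjusted p = 0.942). Without VEH replicate 1 the difference at PEAK_140 was 4.15 (adjusted p = 0.0477).

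Plin5 region 1, nearest to Plin4, held -0.75 and -0.93 in VEH, 5.05 and 3.74 in PEAK_140, 1.45 and -0.53 in NADIR_180, 4.80 and 3.27 in CONS_140 and 4.18 and 3.63 in CONS_180. It rose against VEH by 5.24 at PEAK_140 (standard error 0.87, adjusted p = 0.000725), by 4.87 at CONS_140 (adjusted p = 0.00135) and by 4.75 at CONS_180 (adjusted p = 0.00167), and gave 1.3 at NADIR_180 (adjusted p = 0.486). Plin5 region 2 held -0.84 and -1.0 in VEH, 3.08 and 3.69 in PEAK_140, 0.65 and -0.62 in NADIR_180, 3.34 and 3.22 in CONS_140 and 1.27 and 3.59 in CONS_180. Its differences from VEH were 4.30 (adjusted p = 0.00193), 4.20 (adjusted p = 0.00284) and 3.35 (adjusted p = 0.00876) at PEAK_140, CONS_140 and CONS_180, the last lost without CONS_180 replicate 2 (2.19, adjusted p = 0.0565), and 0.93 at NADIR_180 (adjusted p = 0.636).

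Taking all 9 regions, 6 were called as higher at PEAK_140, 5 at CONS_140, 7 at CONS_180 and 0 at NADIR_180 (0 also at an unadjusted p under 0.05), and 0 as lower. The background over 3981 regions was 80.5%, 65.1%, 68.2% and 7.79% in the same order, so these genes' regions were called about as often as GR regions in general, and the shares are no result about the genes. The median difference from VEH was 4.30, 4.13, 3.86 and 0.93 for the 9 regions, beside 4.17, 3.38, 3.46 and 0.84 over all regions. Because most regions rose together, centring each library on its median left 0 of the 9 called in any of these comparisons.

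PEAK_140 exceeded NADIR_180 in 6 of the 9 regions, where 69.3% of all regions were called. These were Angptl4 regions 2, 3 and 5 (2.89, 4.16 and 4.71, adjusted p = 0.00673, 0.0026 and 0.00533), Cidec region 2 (3.95, adjusted p = 0.00216) and Plin5 regions 1 and 2 (3.93 and 3.37, adjusted p = 0.00475 and 0.00912), of which Plin5 region 2 was lost without NADIR_180 replicate 2 (adjusted p = 0.0585). The other three passed in part when a CONS_140 library was left out: Angptl4 region 4 (2.83, adjusted p = 0.082) without replicate 1 (0.00699) or 2 (0.0066), and Cidec region 1 (2.82, adjusted p = 0.104) without replicate 1 (0.0482) or 2 (0.0495). In the constant pattern, CONS_140 against CONS_180 called 0 of 9 regions (1 at an unadjusted p under 0.05) and 0.0% of all regions, and PEAK_140 against CONS_140 called 0 of 9 (1 at an unadjusted p under 0.05) and 0.0502%. Angptl4 region 5 was the one of low p there (3.31, adjusted p = 0.271). Without CONS_140 replicate 1 it gave 4.97, with replicate 2 (-1.16) alone in its group.

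At 180 min, CONS_180 exceeded NADIR_180 in the same 6 regions that separated peak from trough, where 49.6% of all regions were called. The differences were 2.94, 2.74 and 4.39 at Angptl4 regions 2, 3 and 5, 3.81 at Cidec region 2, and 3.45 and 2.42 at Plin5 regions 1 and 2 (adjusted p = 0.00417 to 0.0459). Cidec region 2 kept its call with each library left out. The other calls were lost without single libraries: Angptl4 region 2 without CONS_180 replicate 2 (adjusted p = 0.0548), region 3 without CONS_180 replicate 1 (0.122) or 2 (0.0615), region 5 without NADIR_180 replicate 2 (0.0521) or CONS_180 replicate 1 (0.0853), and Plin5 region 1 without NADIR_180 replicate 2 (0.0641) or CONS_180 replicate 1 (0.0818) or 2 (0.0513). Plin5 region 2 was lost without any of 6 libraries, both of PEAK_140 and of VEH and replicate 2 of NADIR_180 and of CONS_180 (adjusted p = 0.0634 to 0.245). Angptl4 region 4 (3.47, adjusted p = 0.0541) passed without CONS_140 replicate 1 (0.0053) or 2 (0.00507).

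The difference between the patterns in their change over time, PEAK_140 minus NADIR_180 less CONS_140 minus CONS_180, was above 0 in all 9 regions and passed in 4, where 44.0% of all regions were called. It was largest at Angptl4 region 5, 7.70 (standard error 1.52, adjusted p = 0.00812), above 99.5% of all GR regions. This call was kept with each library left out, though each such fit leaves 1 library in that group. The region had peaks only in PEAK_140 and CONS_180, the groups that this difference adds, so its choice favoured a large value. Its CONS_140 libraries were split (2.16 and -1.16). Over all regions, centring libraries on their median cut the calls in this comparison from 1751 to 40. Cidec region 2 gave 3.84 (adjusted p = 0.0208), Plin5 region 1 gave 3.81 (adjusted p = 0.0367) and Angptl4 region 3 gave 3.32 (adjusted p = 0.0429). These 3 were lost without single libraries: Cidec region 2 without PEAK_140 replicate 1 or either CONS_180 library (adjusted p = 0.0562 to 0.0755), Plin5 region 1 without either PEAK_140 or CONS_180 library, NADIR_180 replicate 2 or CONS_140 replicate 2 (0.0513 to 0.124), and Angptl4 region 3 without any library but those of NADIR_180 (0.0579 to 0.125). The other 5 regions gave 2.52 to 4.94 and did not pass. They passed only in fits that left 1 library in a group. The library left out was CONS_140 replicate 1 for Angptl4 regions 1, 2 and 4 and Cidec region 1, NADIR_180 replicate 1 for Angptl4 region 2, and CONS_180 replicate 1 for Plin5 region 2. CONS_140 replicate 2 held -0.98, -1.09 and -0.87 in Angptl4 regions 1 and 4 and Cidec region 1, near VEH replicate 2 (-1.03, -1.15 and -0.92). Such a pass rests on 1 library and says little about these regions.

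Set side by side, the genes with GR regions were not those whose RNA fell. Angptl4, with 5 regions whose mean occupancy was lowest in VEH and at the trough, gave RNA log2 fold changes of -0.09 and -0.13 and pSer2 Pol2 differences from VEH of -0.24 to -1.0. In its regions 1, 4 and 5 a CONS_140 library lay as low as VEH, and the file gives Rab11b as the nearest start of regions 4 and 5. Cidec, with 2 regions, gave RNA log2 fold changes of 0.32 and 0.51 and pSer2 Pol2 differences of 0.48 to 0.89. Lipc and Plin2, with 0 regions within 50 kb, gave the RNA falls. Plin2 had its lowest pSer2 Pol2 values at PEAK_140, and Lipc lay at its floor there and in 1 library each of CONS_140 and CONS_180. Within 100 kb 1 region was listed for Plin2 and 0 for Lipc. The 9 genes are too few to relate the assays to each other, and no such relation was tested.

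The RNA of 5 other genes followed Angptl4 most closely over the 12 libraries, among 10788 genes with a mean log2 CPM above 1: Nudt18 (Pearson r = 0.862), Gsta4 (0.837), Nono (0.822), Ikzf1 (0.807) and Slit3 (0.804). The libraries share 4 groups, so these values are a description. Like Angptl4, none of the 5 passed in any RNA comparison.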

How the data were processed

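GR and pSer2 Pol2 ChIP-seq and RNA-seq of rat liver were used as deposited. RNA reads were trimmed with bbduk, aligned to rn6 and assigned to exons with featureCounts 1.6.2, and the deposited RNA values are raw counts made by the authors; STAR is listed in the submitters' processing notes. ChIP reads were trimmed with Trimmomatic 0.36, aligned to rn6 with bowtie2 and freed of duplicates with SAMtools. With HOMER 4.9.1 the authors subtracted input and deposited log2 values; for their tests the methods scale GR tags to those within GR regions and pSer2 Pol2 tags to all sequenced tags. The deposited GR values are not levelled in that way, since their group medians run from -0.57 in VEH to 3.78 in PEAK_140, and other scalings are therefore given among the alternatives. GR peaks were kept at an irreproducible discovery rate of 0.01, and pSer2 Pol2 regions were longer than 320 bases and limited to 10 kb from the start. Deposited tables of the authors' own DESeq2 comparisons were not used. Depth is given with the results.

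Counts were tested with edgeR 4.0.16 (quasi-likelihood, TMM, more than 10 reads over 12 libraries, all libraries in 1 fit) and log2 values with limma 3.58.1 (trend, all 10 libraries of an assay in 1 fit), in R 4.3.3, with Benjamini-Hochberg adjustment. CPM of genes used TMM effective library sizes, and marker sums used total reads. Features were called at an adjusted p under 0.05 and over 1.5-fold. Peaks overlapped a region by at least 1 base. DESeq2 1.42.0, other scalings, filters and windows, a replicate block and leaving out each library were alternatives. Same-numbered pSer2 Pol2 libraries of the CORT groups deviated together (r from 0.155 to 0.553 over 12 pairs, which mirror each other within groups of 2). The labels do not say what a number shares, and the VEH libraries carry none. The pSer2 Pol2 standard errors and calls reported as main results come from fits without this pairing. The block was run only as an alternative among the CORT libraries. The tests were tested on simulated data. Tables and figures were made with Python 3.11.15, pandas 2.3.3, NumPy 2.4.6 and matplotlib 3.10.9. All 9 members, list genes called in any comparison and the 5 genes most like Angptl4 were named; members and lists were chosen with earlier results of these data known.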

Additional observations from a re-analysis of the deposited data

Results flagged for a closer look

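In 4 GR regions the pulsatile and constant patterns differed in their change over time by limma's test of the difference itself (PEAK_140 minus NADIR_180, less CONS_140 minus CONS_180). The log2 difference was 7.70 at Angptl4 region 5, 3.84 at Cidec region 2, 3.81 at Plin5 region 1 and 3.32 at Angptl4 region 3. Of all GR regions, 44.0% passed the same test, and only Angptl4 region 5, among these 4, kept its call with each library left out in turn. The regions come from peaks called in these same libraries, so the test is not independent of how they were chosen. Angptl4 region 5 had peaks only in PEAK_140 and CONS_180, the groups that this difference adds. Its CONS_140 libraries were split (2.16 and -1.16). Both of its NADIR_180 values and 1 CONS_140 value lay below 0, so 7.70 is a fitted value and not a measured depth.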

How the results depend on the processing

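Of 700 values for RNA, 1043 for pSer2 Pol2 and 1260 for GR recomputed under the alternatives, 669, 965 and 1057 kept their direction and side of the threshold, whatever the size of their change. Centring libraries on their median or quantile normalization makes library medians alike by construction, and moved the median GR difference over all regions from 4.17 at PEAK_140, 3.38 at CONS_140 and 3.46 at CONS_180 against VEH to -0.45, -0.73 and -0.60 when centred. GR regions called fell to 0 (centred) and 1 (quantile) at PEAK_140, 0 and 0 at CONS_140, 0 and 1 at CONS_180, and 0 and 1 for PEAK_140 against NADIR_180, while a window of 100 kb gave 10 at PEAK_140 and 10 for PEAK_140 against NADIR_180. Reversed when centred were Angptl4 region 2 (-0.81 at PEAK_140, -0.21 at CONS_180, -0.55 for PEAK_140 against NADIR_180), Angptl4 region 4 (-0.38 at CONS_180), Plin5 region 2 (-0.31 at PEAK_140, -0.71 at CONS_180, -0.065 for PEAK_140 against NADIR_180, -0.46 for CONS_180 against NADIR_180) and Angptl4 region 3 (-0.14 for CONS_180 against NADIR_180, -0.066 for the difference of time effects). Under quantile normalization Angptl4 region 2 reversed (-0.30 at PEAK_140, -0.48 for PEAK_140 against NADIR_180), as did Angptl4 region 3 (-0.34 and -0.16, for the last 2 comparisons named) and Plin5 region 2 (-0.15 for CONS_180 against NADIR_180). For pSer2 Pol2, members called went from 0 to 2 (centred) and 3 (quantile) at PEAK_140, and under quantile normalization to 1 at CONS_140, 1 at CONS_180 and 1 for PEAK_140 against NADIR_180. Calls over all 38315 regions rose too, from 379 to 783 (centred) and 844 (quantile) at PEAK_140. Under quantile normalization they rose from 302 to 711 at CONS_140, from 82 to 363 at CONS_180 and from 184 to 497 for PEAK_140 against NADIR_180. With each library left out, members called ranged from 0 to 1 under PULS and 2 to 3 under CONS for RNA, and from 0 to 0 in the other RNA comparisons and in pSer2 Pol2 against VEH, for PEAK_140 against NADIR_180 and for CONS_180 against NADIR_180. They ranged from 0 to 1 for pSer2 Pol2 PEAK_140 against CONS_140 and CONS_140 against CONS_180, and from 0 to 2 for the difference of time effects. Over all regions, leaving out CONS_140 replicate 2 moved pSer2 Pol2 calls for CONS_140 against VEH from 302 to 5669. GR regions ranged from 6 to 7 at PEAK_140, 0 to 1 at NADIR_180, 5 to 7 at CONS_140, 5 to 8 at CONS_180 and 5 to 8 for PEAK_140 against NADIR_180. Over all genes, DESeq2 called 229 genes for the difference of the RNA responses where edgeR called 4, and 207 for CONS CORT against PULS CORT where edgeR called 125. Same-numbered libraries deviated together with r of -0.0488 to 0.081 for RNA and -0.0265 to 0.0718 for GR, which were taken to share only a number. With the replicate block 1 member was called under PULS, 2 under CONS, 0 in the other RNA comparisons, 0 in each of the 5 pSer2 Pol2 comparisons among CORT groups, and 7 GR regions for PEAK_140 against NADIR_180 where 6 were called without it.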
